A study of Mus musculus with 4 samples.

Results

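A set of 10 mRNAs whose products are unusually large proteins was examined across the RNA immunoprecipitation libraries of 4T1 cells: Birc6, Nbea, Vps13a, Vps13b, Vps13c, Vps13d, Pkd1, Herc1, Huwe1 and Dync1h1. They were chosen by symbol for their very long coding sequences, and 4 of them (Birc6, Nbea, Vps13b and Pkd1) because earlier results of these data gave them a higher ratio of Caprin-1 to IgG in cells with the CerS4 shRNA. All 10 had values, out of 12967 gene symbols, and all 10 were among the 10283 symbols that averaged 5 CPM or more over the 4 libraries (CPM gives reads relative to the library total). Because the choice used the ratios of all 4 libraries, every value below is a description of these libraries and supports nothing beyond them.

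The study precipitated the RNA-binding protein Caprin-1 from 4T1 cells, a metastatic mammary carcinoma line of BALB/c mice, to compare the mRNAs held by it when lipid metabolism is altered. The groups were cells stably expressing a control shRNA (shSCR) and cells stably expressing an shRNA against the ceramide synthase CerS4 (shCerS4), each precipitated with anti-Caprin-1 and, as background, with IgG. Both lines grew with puromycin, and the labels do not say whether either line was a single clone. Each group was 1 library, so no difference was checked by a replicate and no test was made. Brackets after a log2 ratio hold its 95% counting interval, which covers counting error between libraries and neither amplification nor culture-to-culture variation.

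The estimated depth was 19.7 to 27.0 M reads per library. Of the epithelial markers 8 of 9 had values, with summed levels of 5790 CPM in shSCR IgG, 9940 CPM in shSCR Caprin-1, 4150 CPM in shCerS4 IgG and 6290 CPM in shCerS4 Caprin-1. Values were found for 1 of 6 leukocyte markers (Cd68, 14.6 to 49.1 CPM), 1 of 3 endothelial markers (Kdr, 0.0 to 0.666 CPM) and 3 of 5 fibroblast markers (19.3 to 61.7 CPM summed). Their part in the results was not tested. Cers4 itself had no entry under that symbol, so the knockdown was not checked.

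The proteins encoded by these mRNAs work as large scaffolds or machines. Birc6 (also called BRUCE) is an inhibitor-of-apoptosis protein that can itself attach ubiquitin to its targets, and Herc1 and Huwe1 are ubiquitin ligases of the HECT class. The VPS13 proteins are rod-shaped bridges that carry lipids between membranes at organelle contact sites. Nbea (neurobeachin) is a BEACH-domain protein of membrane protein trafficking, Pkd1 encodes a polycystin, a large receptor-like protein whose loss causes polycystic kidney disease, and Dync1h1 encodes the motor-bearing heavy chain of cytoplasmic dynein. No transcript lengths were used, so levels are compared for 1 gene across libraries and not between genes.

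Every one of the 10 mRNAs held a smaller share of the Caprin-1 library than of the IgG library, in both cell lines. Summed over the 10, the level was 497 CPM with IgG and 152 CPM with Caprin-1 in shSCR cells, 3.27-fold lower with Caprin-1. In shCerS4 cells it was 551 CPM with IgG and 263 CPM with Caprin-1, 2.10-fold lower. The shSCR Caprin-1 library had the lowest value of each of the 10 mRNAs, and the shCerS4 Caprin-1 library the next lowest. Behind these sums were 9857 reads with IgG and 4120 with Caprin-1 in shSCR cells, and 10833 and 6486 in shCerS4 cells. Libraries were scaled to their own totals and no RNA yield was used, so a lower share is not less RNA.

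**Figure D1:**
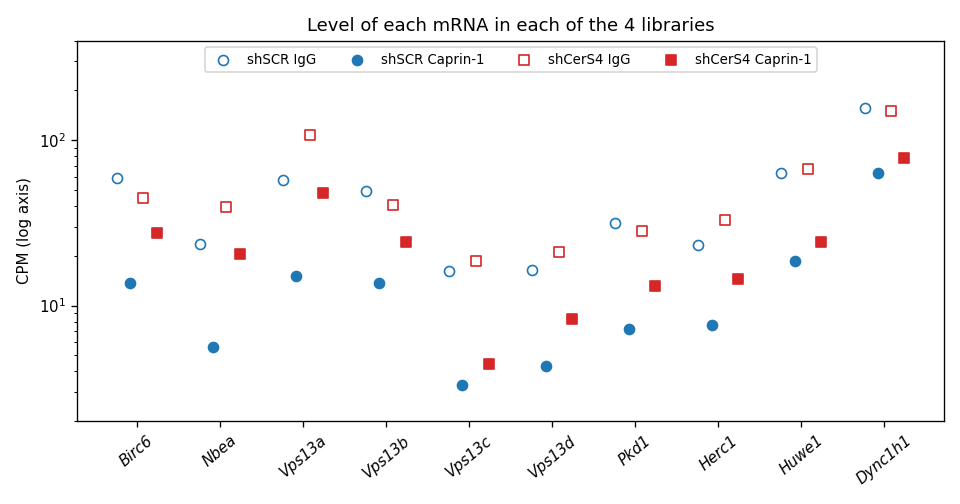
Level of each of the 10 mRNAs (CPM, log axis) in the 4 libraries, 1 point per library, open for IgG and filled for Caprin-1, blue circles for shSCR and red squares for shCerS4. For each gene both filled points lie below both open points, and the filled blue point is the lowest, for example 13.7 CPM for Birc6.

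Among the ubiquitin enzymes, Birc6 (chromosome 17, 74528254 to 74703356, build GRCm38) stood at 59.5 CPM in shSCR IgG, 13.7 CPM in shSCR Caprin-1, 44.6 CPM in shCerS4 IgG and 27.3 CPM in shCerS4 Caprin-1. The IgG value was thus lower in shCerS4 than in shSCR cells and the Caprin-1 value higher. Its Caprin-1 over IgG log2 ratio was −2.11 [−2.29, −1.95] in shSCR cells, where 0.5% of the compared genes had a lower ratio, and −0.71 [−0.86, −0.56] in shCerS4 cells, where 17.2% had. Herc1 (chromosome 9, 66350412 to 66508775) stood at 23.3, 7.60, 33.0 and 14.4 CPM in the same order of libraries. Both of its shCerS4 values were above the matching shSCR values, and its ratio was −1.61 [−1.86, −1.37] in shSCR and −1.20 [−1.39, −1.01] in shCerS4 cells. Huwe1 (chromosome X, 151800785 to 151935417), a ligase for many regulators of growth and cell death, stood at 63.4, 18.7, 67.2 and 24.4 CPM. Its IgG values were close to each other in the 2 lines, and its ratio stayed low, at −1.76 [−1.91, −1.61] and −1.46 [−1.60, −1.32].

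The 4 VPS13 mRNAs were all low with Caprin-1 in shSCR cells and spread apart in shCerS4 cells. Vps13a (chromosome 19, 16615366 to 16781071), whose loss causes chorea-acanthocytosis, stood at 57.3 CPM in shSCR IgG, 15.2 CPM in shSCR Caprin-1, 108 CPM in shCerS4 IgG and 48.0 CPM in shCerS4 Caprin-1. Vps13b (chromosome 15, 35371118 to 35931229), a Golgi-associated member mutated in Cohen syndrome, stood at 49.0, 13.7, 40.6 and 24.4 CPM in that order. Their Caprin-1 over IgG log2 ratios were −1.91 [−2.08, −1.75] and −1.84 [−2.01, −1.66] in shSCR cells, with overlapping intervals. In shCerS4 cells they were −1.17 [−1.28, −1.07] for Vps13a and −0.74 [−0.89, −0.58] for Vps13b, with intervals that did not overlap.

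Vps13c (chromosome 9, 67840316 to 67997744), which acts between the endoplasmic reticulum and late endosomes, stood at 16.2 CPM with IgG and 3.33 CPM with Caprin-1 in shSCR cells, and at 18.5 and 4.46 CPM in shCerS4 cells. It was the mRNA of the 10 with the lowest ratio in both lines, −2.28 [−2.64, −1.94] in shSCR and −2.04 [−2.37, −1.74] in shCerS4 cells, and its 2 intervals overlapped. It was also the least deeply read, with 90 reads in shSCR Caprin-1 and 110 in shCerS4 Caprin-1. Vps13d (chromosome 4, 144871045 to 145195037), a member needed for normal mitochondria, stood at 16.5, 4.29, 21.0 and 8.35 CPM, with ratios of −1.94 [−2.26, −1.63] and −1.33 [−1.58, −1.09].

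Vps13d was the gene of the 10 with 2 transcript entries, and these parted in 1 library. Both had a ratio of −1.93 in shSCR cells and both were higher by 0.35 on the log2 scale in shCerS4 than in shSCR cells with IgG. With the CerS4 shRNA the ratio to IgG was −0.99 [−1.35, −0.65] for the first entry and −1.66 [−2.03, −1.31] for the other. The authors' counting shared reads among transcripts, so the split of reads between the entries is an estimate. It was 142.3 and 184.7 reads in shSCR IgG, 50.5 and 65.5 in shSCR Caprin-1, and 180.2 and 233.8 in shCerS4 IgG. The proportion was nearly the same in these libraries, so the agreement of the entries there may not be 2 separate measurements. The intervals of each entry treat these estimated reads as counted ones.

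Nbea (chromosome 3, 55625195 to 56183748) stood at 23.7 CPM in shSCR IgG, 5.59 CPM in shSCR Caprin-1, 39.5 CPM in shCerS4 IgG and 20.6 CPM in shCerS4 Caprin-1. Its ratio was −2.08 [−2.36, −1.82] in shSCR and −0.94 [−1.10, −0.78] in shCerS4 cells. Pkd1 (chromosome 17, 24548689 to 24596514) stood at 31.5, 7.25, 28.2 and 13.2 CPM, with ratios of −2.12 [−2.36, −1.88] and −1.10 [−1.30, −0.90]. Its IgG values lay closer together than its Caprin-1 values. Dync1h1 (chromosome 12, 110601395 to 110666944), the most deeply read of the 10 with 1704 to 3109 reads per library, stood at 157, 63.0, 150 and 77.9 CPM. Its ratio in shSCR cells, −1.31 [−1.40, −1.23], was the nearest to 0 among the 10, and in shCerS4 cells it was −0.94 [−1.03, −0.86].

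In shSCR cells all 10 mRNAs were lower with Caprin-1 by at least 2-fold with an interval that excluded 0, where 13% of the compared genes were. In shCerS4 cells 6 of 10 were, against 8.02% of genes: Vps13a, Vps13c, Vps13d, Pkd1, Herc1 and Huwe1. Under trimmed-mean scaling Pkd1 stood at −0.94 and was no longer among them. The ratios of both lines enter the contrast by which Birc6, Nbea, Vps13b and Pkd1 were chosen. The median log2 ratio of the 10 was −1.93 in shSCR and −1.13 in shCerS4 cells, beside −0.13 and −0.11 over all compared genes, and all 10 ratios stayed below 0 in both lines under the 3 other scalings. Trimmed-mean scaling moved the medians of all genes to 0.03 and 0.05 and those of the 10 mRNAs to −1.76 and −0.98. In shSCR cells the 10 values spanned −2.28 to −1.31, and each of them had an interval that overlapped that of its neighbour in the order. In shCerS4 cells Vps13c at −2.04 stood apart from its neighbour Huwe1 at −1.46, and the other neighbours overlapped. The order was not the same: Birc6 was the third lowest of the 10 in shSCR cells and the highest in shCerS4 cells.

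**Figure D2:**
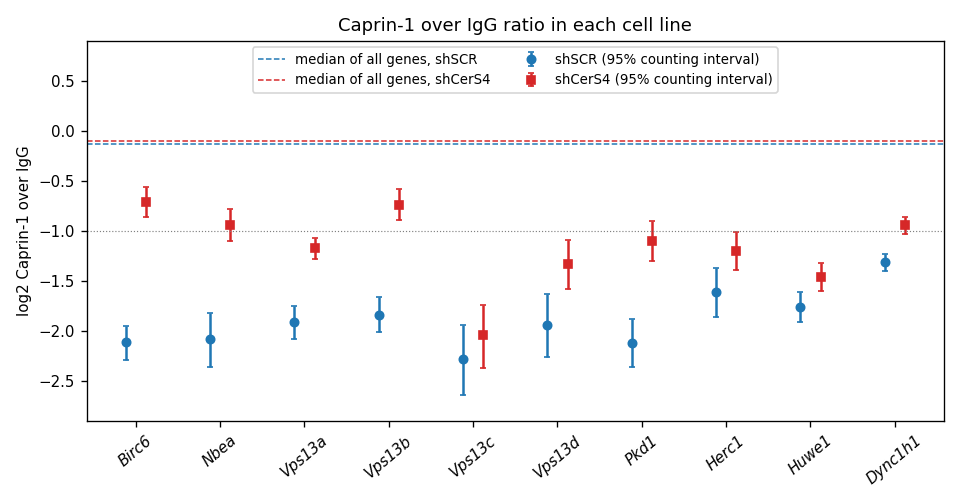
Log2 Caprin-1 over IgG ratio of each mRNA in shSCR (blue circles) and shCerS4 cells (red squares), with 95% counting intervals; dashed lines are the medians of all compared genes and the dotted line is 2-fold lower. All points lie below the dashed lines, at −2.28 to −1.31 in shSCR and −2.04 to −0.71 in shCerS4 cells.

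The study's main comparison was between the Caprin-1 precipitates of the 2 lines. All 10 mRNAs were higher in shCerS4 cells, with a median log2 ratio of 0.89 (1.85-fold), and the median over all compared genes was 0.15. Under trimmed-mean scaling these medians were 0.78 and 0.04, and all 10 stayed above 0. This ratio is a part of the contrast by which Birc6, Nbea, Vps13b and Pkd1 were chosen. The choice favoured high values of it for them. Nbea had the highest ratio at 1.88 [1.62, 2.15], or 3.68-fold, and Vps13a stood next at 1.66 [1.5, 1.82], or 3.16-fold. These 2 were at least 2-fold higher, where 6.25% of genes were, and Birc6 at 0.99 [0.81, 1.18] lay just under 2-fold. Vps13d (0.96), Herc1 (0.92), Pkd1 (0.86) and Vps13b (0.83) followed, with overlapping intervals. Vps13c at 0.42 [0.01, 0.84], Huwe1 at 0.39 [0.21, 0.56] and Dync1h1 at 0.31 [0.21, 0.40] were the lowest. The intervals of all 10 lay above 0, as did those of 51.0% of genes. Under each of the 3 other scalings 9 of 10 did, since that of Vps13c then held 0, at 0.32 [−0.10, 0.74] under the trimmed mean. In such bulk RNA, more cells that hold an mRNA and more of it per cell cannot be told apart. No library of unprecipitated RNA was among the samples. More of an mRNA in the cells and more of it held by Caprin-1 were therefore not separated here.

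In the IgG precipitates the same mRNAs did not share a direction. Vps13a stood at 0.92 [0.81, 1.02], Nbea at 0.74 [0.57, 0.91], Herc1 at 0.50 [0.33, 0.68] and Vps13d at 0.35 [0.14, 0.57] on the log2 scale of shCerS4 over shSCR. Birc6 at −0.41 [−0.54, −0.29] and Vps13b at −0.27 [−0.41, −0.14] were lower in shCerS4 cells. The intervals of Vps13c (0.18), Huwe1 (0.08), Dync1h1 (−0.07) and Pkd1 (−0.16) held 0, and the sign of Huwe1 turned to −0.01 under trimmed-mean scaling. The intervals of Pkd1 and Dync1h1 lay below 0 under each of the 3 other scalings, at −0.26 [−0.42, −0.09] and −0.16 [−0.24, −0.09] under the trimmed mean. None of the 10 reached 2-fold, which 5.69% of genes did upwards and 5.34% downwards. An interval above 0 was seen for 4 of 10 (46.9% of genes) and one below 0 for 2 of 10 (32.2% of genes), or for 4 of 10 under the other scalings. The median of the 10 was 0.13, beside 0.10 over all compared genes. The IgG ratio is also a part of the contrast by which Birc6, Nbea, Vps13b and Pkd1 were chosen.

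**Figure D3:**
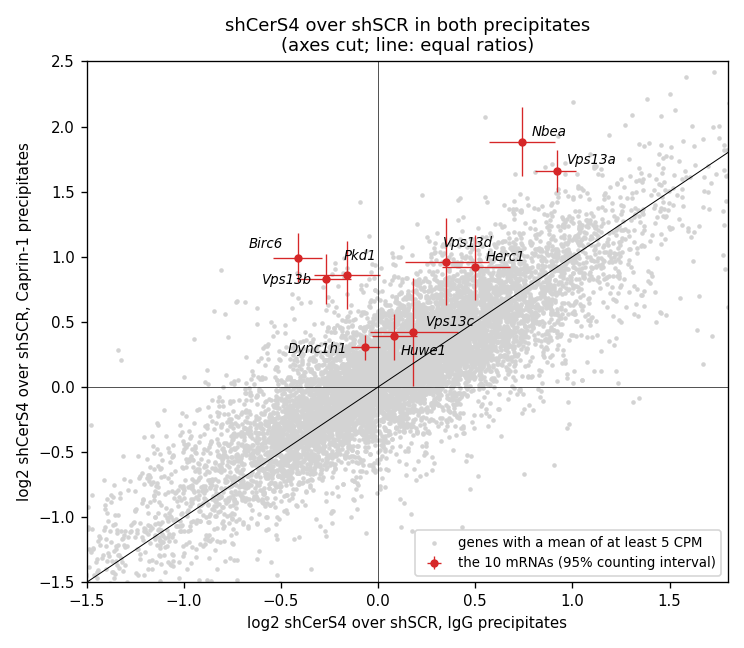
Log2 shCerS4 over shSCR ratio in the IgG precipitates (x) against that in the Caprin-1 precipitates (y), red for the 10 mRNAs with 95% counting intervals and grey for the other compared genes; the axes are cut, and the diagonal marks equal ratios. All 10 points lie above the diagonal, from Birc6 at −0.41 and 0.99 to Nbea at 0.74 and 1.88.

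The height above that diagonal is the change in the log2 Caprin-1 over IgG ratio, shCerS4 minus shSCR. This is the contrast by which 4 of the mRNAs were chosen. It was 1.40 [1.18, 1.63] for Birc6, 1.14 [0.83, 1.45] for Nbea, 1.10 [0.87, 1.33] for Vps13b and 1.02 [0.71, 1.32] for Pkd1. The next were Vps13a at 0.74 [0.55, 0.93], or 1.67-fold, and Vps13d at 0.61 [0.22, 1.00]. Herc1 (0.41), Dync1h1 (0.37), Huwe1 (0.30) and Vps13c (0.24) were the lowest, and the interval of Vps13c, [−0.22, 0.69], held 0. The 4 past 2-fold stand beside a background of 0.632% of genes, but they were picked for this. Pkd1 fell to 0.99 under median-of-ratios and upper-quartile scaling. An interval above 0 was found for 9 of 10, against 29.4% of genes, but these 9 include the 4 picked for a high difference. The 2 entries of Vps13d gave 0.94 [0.37, 1.51] and 0.28 [−0.26, 0.81], and with the latter, its most abundant transcript, alone the count was 8 of 10.

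These differences arose from different library values. For Birc6 and Vps13b the Caprin-1 value was higher and the IgG value lower in shCerS4 cells. For Nbea, Vps13a, Herc1 and Vps13d both values were higher, the Caprin-1 value by more. For Pkd1 and Dync1h1 the Caprin-1 value was higher, and the IgG interval held 0 under scaling to totals and lay below 0 under the other scalings. Within the VPS13 family the difference ran from 1.10 for Vps13b to 0.24 for Vps13c, with intervals that did not overlap. Vps13b was chosen for a high difference, so this gap cannot be weighed. Vps13a at 0.74 and Vps13d at 0.61, not chosen for it, lay between.

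Genomic span, the distance from the start to the end of the gene in the annotation, was set beside these ratios because no protein or transcript length was available for this work. The 10 genes span 47.8 kb (Pkd1) to 560 kb (Vps13b). Across 10279 genes, which are not independent replicates and share the libraries, the Caprin-1 over IgG ratio had Spearman correlations with span of −0.54 in shSCR and −0.48 in shCerS4 cells, and the difference had one of 0.29. Among the other genes spanning 100 to 200 kb, 821 in number, the median ratio was −0.76 in shSCR and −0.57 in shCerS4 cells, and 35.8% and 21.3% were at least 2-fold lower. Birc6, Vps13a, Vps13c, Herc1 and Huwe1 are in this class.

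All 10 mRNAs lay below the median of the other genes of their span class in both lines. In shSCR cells the distance was −0.70 for Dync1h1, the smallest, and −1.87 for Pkd1, the largest. The 2947 other genes spanning 20 to 50 kb had a median of −0.25, whereas Pkd1, in that class, stood at −2.12. In shCerS4 cells Birc6 and Vps13b came near their class medians, at distances of −0.14 and −0.13, and Vps13c stayed farthest at −1.47. The differences between the lines, taken relative to the class median, were 1.24 for Birc6, 0.98 for Nbea, 0.95 for Pkd1 and 0.94 for Vps13b. These genes were chosen for a high difference, so their distance above the class median cannot be weighed. For the members not chosen for it, the values were 0.58 for Vps13a, 0.44 for Vps13d and 0.26 for Herc1. Dync1h1 stood at 0.22, Huwe1 at 0.14 and Vps13c at 0.08.

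**Figure D4:**
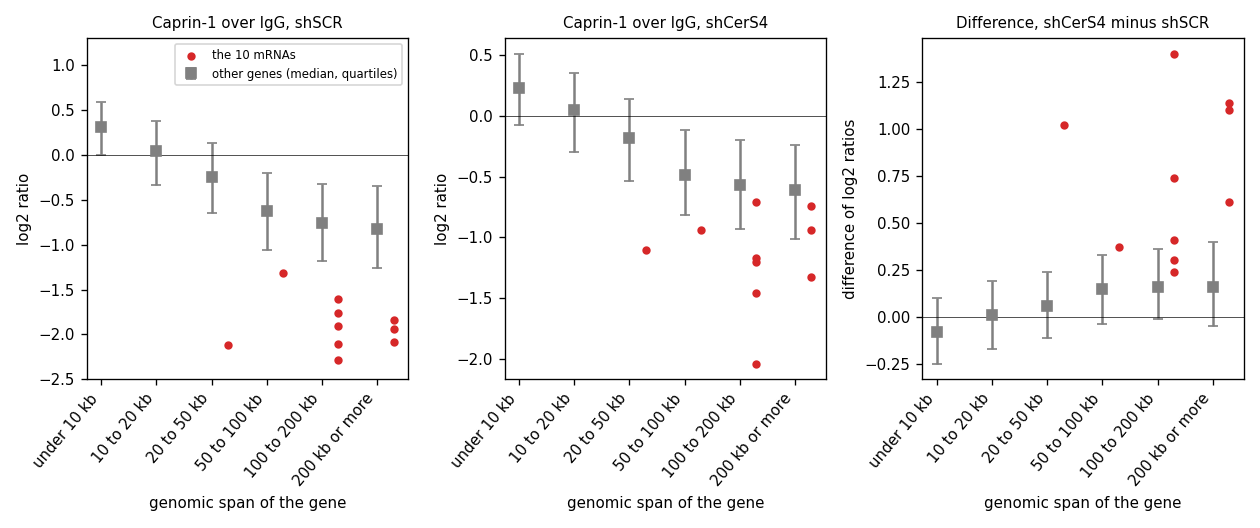
Log2 Caprin-1 over IgG ratio in shSCR cells (left), in shCerS4 cells (middle) and their difference (right) by class of genomic span; grey squares and bars are medians and quartiles of the other genes and red points are the 10 mRNAs. The grey medians fall from 0.31 to −0.82 in shSCR cells as span grows, and the red points lie below the median of their class in the left and middle panels and above it in the right panel. Birc6, Nbea, Vps13b and Pkd1 were chosen for a high value of the difference.

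Relatives and partners of these proteins, listed with earlier results of these data known, were counted next. Of 57 measured mRNAs of other very large proteins, 50 were at least 2-fold lower with Caprin-1 in shSCR cells and 36 in shCerS4 cells, where 13% and 8.02% of all compared genes were. None was 2-fold higher, as 1.69% and 0.934% of genes were. Their median ratios were −1.42 and −1.05, and the median of the difference was 0.37. An interval above 0 was seen for 39 of 57 (29.4% of all genes), and none was past 2-fold upwards (0.632% of all genes). Among them Myh9, a heavy chain of non-muscle myosin and the most abundant, had ratios of −1.31 and −1.18, Mga had the highest difference at 0.89 [0.59, 1.19] and Spen the lowest at −0.65 [−1.22, −0.09]. The medians of the 10 mRNAs for the same quantities were −1.93, −1.13 and 0.67. The last includes Birc6, Nbea, Vps13b and Pkd1, which were chosen for a high difference, so it cannot be weighed against 0.37. The members not chosen for it ran from 0.24 (Vps13c) to 0.74 (Vps13a).

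Of 25 ubiquitin ligases, 15 were at least 2-fold lower with Caprin-1 in shSCR cells (13% of all genes) and 6 in shCerS4 cells (8.02%), with a median difference of 0.44. Ubr4 is in this list and in that of very large proteins. Hectd4, another large HECT ligase, had the highest difference at 1.02 [0.58, 1.46], Nedd4l the lowest at −0.24 [−0.48, 0.01], and Nedd4, the most abundant, stood at 0.39. Among 4 measured mRNAs of the inhibitor-of-apoptosis family the median difference was 0.30. Xiap, the caspase inhibitor, stood at 0.63 [0.50, 0.75], and Birc5, which encodes the mitotic protein survivin, at −0.23 [−0.38, −0.09]. Birc5 was 4.34-fold lower in shCerS4 cells with Caprin-1 and 3.69-fold lower with IgG, whereas Birc6 was higher by 1.99-fold with Caprin-1 and 1.33-fold lower with IgG.

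BEACH-domain relatives of Nbea had a median difference of 0.72 over 7 mRNAs, with intervals above 0 for 5 (29.4% of all genes). Lrba, the close paralog of Nbea, stood at 1.28 [0.96, 1.60], with ratios of −1.93 in shSCR and −0.66 in shCerS4 cells. Nsmaf, the most abundant of the list, stood at 0.01. Lipid-bridge relatives and partners of VPS13 had a median difference of 0.20 over 15 mRNAs, with 4932438A13Rik, a further lipid-bridge gene also called Bltp1, at 1.03 [0.76, 1.29], the abundant late endosome gene Rab7 at −0.10 and Xkr8 at −0.25 [−0.76, 0.25]. Of 4 measured polycystin relatives and partners, none was past 2-fold in the difference, where only 0.632% of all genes were upwards. The mechanosensitive channel gene Piezo1 stood highest at 0.45 and Prkcsh lowest at 0.01.

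Dync1h1 was set beside other mRNAs of dynein, dynactin and their adaptors and regulators. Over 23 of these the median Caprin-1 over IgG ratio was 0.05 in shSCR and 0.03 in shCerS4 cells, beside −1.31 and −0.94 for Dync1h1. In each line 2 of the 23 were at least 2-fold lower, where 13% of all genes were in shSCR and 8.02% in shCerS4 cells. Named after their values were seen, they were Dync2h1, the heavy chain of the ciliary dynein (−1.38 and −1.18), and the adaptor gene Hook3 (−1.25 and −1.43). The median difference of the 23 was −0.13. An interval below 0 was seen for 12 (20.9% of all genes) and one above 0 for 2 (29.4% of all genes). Pafah1b1, the dynein regulator LIS1, was both the most abundant and the highest at 0.24, and the light chain gene Dynll2 was the lowest at −0.59 [−0.68, −0.51].

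**Figure D5:**
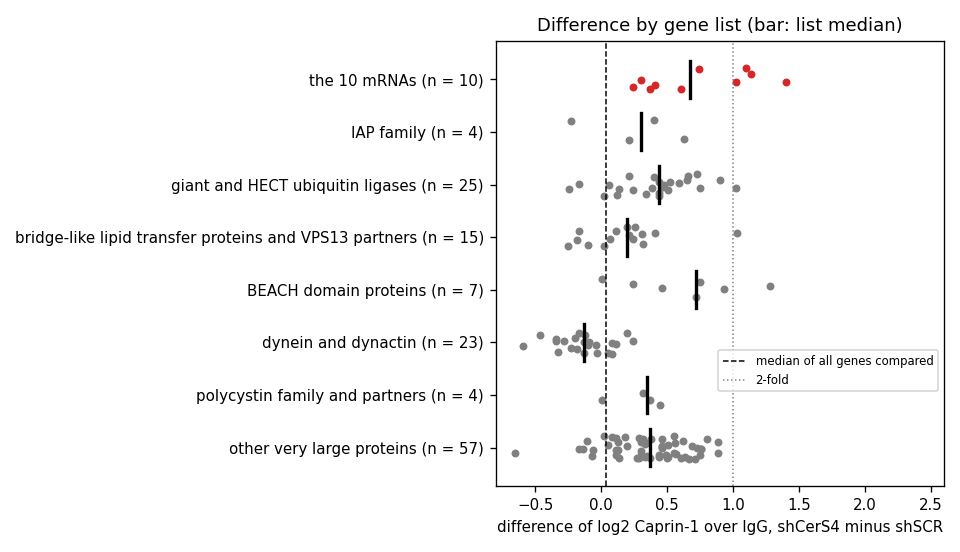
Change in the log2 ratio of Caprin-1 to IgG, shCerS4 minus shSCR, for the 10 mRNAs (red) and 7 lists of relatives, partners and other large proteins (grey), 1 point per gene and a bar at each list median; the dashed line is the median of all compared genes and the dotted line is 2-fold. The bar lies at 0.67 for the 10 mRNAs, at 0.72 for the BEACH list and at −0.13 for the dynein and dynactin list. The 10 mRNAs include Birc6, Nbea, Vps13b and Pkd1, which were chosen for a high value of this change.

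The genes whose 4 library values were most like the mean of Birc6, Nbea, Vps13b and Pkd1, by Euclidean distance of log2 CPM centred on each gene's mean over the 4 libraries, were Castor2 (0.112), the predicted gene Gm10336 (0.155), Zbtb39 (0.208), Gk5 (0.225) and Adamts9 (0.244). Pkd1 at 0.267, Birc6 at 0.295 and Vps13b at 0.327 were near the same mean, which they had entered, and Vps13d stood at 0.348. Other genes nearer than these numbered 7, 10, 15 and 27 in that order. Herc1 (0.409), Huwe1 (0.561), Dync1h1 (0.673), Vps13a (0.769) and Vps13c (0.885) were farther away. Nbea, at 0.754, was farther from that mean than 662 other genes although it entered the mean. Gm10336 spans 3.77 kb and Zbtb39 7.82 kb, below each of the 10 genes. Whether the likeness depends on span was not tested. Reads in shSCR Caprin-1 were few, at 55 for Gm10336, 141 for Zbtb39, 99 for Castor2, 71 for Gk5 and 66 for Adamts9. Gm10336 averaged 5.58 CPM, just above the filter of 5 CPM, and its difference was 1.17 [0.60, 1.73].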

How the data were processed

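RNA from 4 precipitates was sequenced from polyadenylated RNA with a SMARTER kit, per the labels' protocols. STAR, Partek and the mm10 build are named in the submitters' processing notes; versions and strand are not given in the sources used here. The deposited values are CPM per transcript, although named raw counts, each raised by a constant 0.0001 that was removed. Reads were estimated from the CPM worth of 1 read, found from the spacing of low values. Of genes with 1 entry, 81.0% to 82.8% of values under 30 CPM lay within 0.05 reads of a whole number, and 30 of 36 values of the 9 single-entry mRNAs here did. A total of 3 reads is 0.111 to 0.1525 CPM.

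The 24393 transcripts were summed into 12967 symbols, and 12959 matched RefSeq on GRCm38.p6. Log2 ratios were scaled to library totals with 0.5 reads added (numpy 2.4.6, scipy 1.17.1). Intervals are exact binomial for a ratio and normal for a difference of ratios. Scripts were tested on simulated data. The members and lists were chosen with earlier results of these data known. From each list the most abundant gene and the highest and lowest difference were named. A planned comparison by protein length, and the naming of genes with proteins of 3000 residues or more, were not made because no lengths were used. Classes of genomic span took their place and were chosen after seeing the data, as was treating the Vps13d entries apart. Alternatives were scaling by a trimmed mean, by the upper quartile or by median ratios, 5 added reads, a filter of 20 CPM or none, and the most abundant transcript per gene.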

Additional observations from a re-analysis of the deposited data

Results flagged for a closer look

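For Birc6 and Vps13b the shCerS4 over shSCR ratio had opposite signs in the 2 kinds of precipitate, with both intervals excluding 0. The Caprin-1 minus IgG difference of these log2 ratios was 1.40 for Birc6 (0.99 against −0.41) and 1.10 for Vps13b (0.83 against −0.27). The signs stayed opposite under trimmed-mean scaling, at 0.89 against −0.51 and 0.72 against −0.37. With 1 library per group the difference was not tested, and both genes were chosen for it.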

How the results depend on the processing

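No paired analysis was possible because each group has 1 library. With a filter of 20 CPM, which leaves 7 of the 10 mRNAs (Vps13c, Vps13d and Herc1 drop out), the median of the IgG comparison turned to −0.07, that of Caprin-1 over IgG in shCerS4 cells moved to −0.94 with 3 mRNAs past 2-fold, and that of the difference moved to 1.02. Fewer genes enter by construction. Birc6, Nbea, Vps13b and Pkd1, which were chosen for a high difference, are all among the 7 left, and 1.02 is the value of Pkd1. The other 60 summary values stayed within the limits set by counting error or a factor of 1.5, but many of these could hardly move. All 10 mRNAs pass 5 CPM, so dropping the filter left their values unchanged. Using the most abundant transcript could change only Vps13d among the 10. Each scaling shifts all genes of a library alike, which nearly cancels in the difference (median 0.67, or 0.64 under median ratios). Of the values of single mRNAs 35 moved past their counting interval, none with a change of sign, 31 of them under the 3 scalings, such as Dync1h1 between the Caprin-1 precipitates (0.31 to 0.18 under median ratios) and Birc6 over IgG in shSCR cells (−2.11 to −1.94). Of the rest, 3 were the Vps13d ratio to IgG in shCerS4 cells (−1.33 to −0.99 or −1.66 by entry) and 1 was the Dync1h1 difference relative to genes of like span (0.22). The counts over all genes did depend on the settings: the trimmed mean gave 427 higher and 939 lower genes with Caprin-1 in shSCR cells, against 174 and 1337, and 257 and 515 in shCerS4 cells, against 96 and 825. Between the lines, 484 and 590 were higher and lower with Caprin-1, against 643 and 509, and 448 and 644 with IgG, against 585 and 549. For the difference, 457 genes were higher and 311 lower with no filter, 8 and 3 with 20 CPM, and 278 and 174 with the most abundant transcript, against 65 and 36. The planned comparison by protein length was not run. Depth limits Vps13c most.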
